A study of Mus musculus with 27 samples.

Results

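The loss of Rb1 was examined after 24 h of culture by setting the 4 arrays of Rb1 knockout cells (Rb1KO) against the 2 arrays of wild type cells (WT) of the same time, which together are 6 of the 27 arrays of the series. The comparison covers 10916 of 18193 measured genes, those left after the 40% with the lowest mean over all arrays were set aside. The cells came from mouse fetal livers of the E14.5 stage and were kept without further treatment in a medium with 30% fetal bovine serum, so the serum and the culture are shared by all groups at 24 h. The other groups used are DKO cells at 24 h, which lack both Rb1 and p107 (1 array), p107KO cells at 24 h, which lack p107 alone (2 arrays), and Rb1KO and WT cells at 0 h (5 and 3 arrays) and at 48 h (2 arrays each). The gene symbol of p107 is Rbl1. The sources used here do not say which alleles, strain or sex the embryos had, or whether arrays came from separate embryos or litters. The p-values therefore reflect the spread between arrays alone, and much of that spread may be technical. RNA was hybridised to Affymetrix Mouse Genome 430 2.0 arrays, and every level below is a MAS5 signal, the brightness of a gene's probe set on a linear scale. Every difference is on the log2(signal + 32) scale, given as Rb1KO minus WT with its standard error (SE), and its p-value comes from limma and is adjusted over all genes tested with a threshold of 0.05.

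The Rb1 protein is a pocket protein: it binds E2F transcription factors and holds back the genes that carry a cell from G1 into S phase, until cyclin-dependent kinases phosphorylate it. Its relatives p107 and p130 (Rbl2) bind an overlapping set of E2F factors. The fetal liver at mid-gestation is the main site of red cell formation, and most of its cells are erythroblasts, which divide a few more times, leave the cell cycle, fill with haemoglobin and shed their nucleus. Rb1 is known for its role in that exit from the cycle and in the late steps of red cell maturation.

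Markers of red cells were bright on every array, as the label of the tissue implies: the 7 erythroid markers measured summed to a signal of 158670 to 296272 on the Rb1KO arrays and 212291 to 219282 on the WT arrays, and the groups overlapped. The trimmed mean signal was nearly equal on all arrays, but Rb1KO replicate 1 had the highest median signal of all arrays (119) and the lowest median correlation with the arrays of its time (0.937). Y-linked signal was present on Rb1KO replicate 2 and on neither WT array. The Y-linked Eif2s3y read 1404.7 on that replicate and 4.9, 29.2 and 31.3 on Rb1KO replicates 1, 3 and 4. The Rb1KO arrays at 24 h were therefore not all repeats of the same RNA sample. Both WT arrays carry much of the weight of the comparison: without WT replicate 1, 361 genes passed in place of 833, and without WT replicate 2, 297 genes passed. Of the 119 genes that the naming rule gave and that passed, 53 also passed in each of the 6 fits that left out 1 of the 6 arrays, 44 lost the call without WT replicate 1 and 53 without WT replicate 2.

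Rb1 itself was lower on every Rb1KO array. Its brighter probe set read 2659, 3363, 4355 and 4433 on the Rb1KO arrays and 10309 and 8589 on the WT arrays, a difference of -1.37 ± 0.21 (adjusted p = 0.000208). The groups did not overlap, but an appreciable signal remained in Rb1KO cells. The second Rb1 probe set was dim on every array, at 134, 138, 96.7 and 165 in Rb1KO and 65.9 and 4.0 in WT, and went the other way. The array does not report which part of the gene was altered, and the sources used here do not place these probes relative to it. At 48 h Rb1 lay between 4207 and 5453 on the arrays labelled Rb1KO and 5746 and 6583 on the WT arrays, and the difference of -0.36 ± 0.24 did not pass (adjusted p = 0.41), whereas at 0 h it was -1.66 ± 0.18 (adjusted p = 1.17e-05). The 2 arrays of each group at 48 h did not overlap for Rb1. Rbl1 read 2509, 1814, 2212 and 2192 in Rb1KO and 1583 and 1273 in WT, a difference of 0.60 ± 0.23 (adjusted p = 0.122), so that it did not pass although the arrays did not overlap. On the arrays that lack p107, Rbl1 was low, at 99.2 in DKO and 168 and 126 in p107KO, and Rb1 read 4600 in DKO and 9992 and 8279 in p107KO and did not pass between them (adjusted p = 0.0857). Rbl2, which encodes p130, read 352, 358, 231 and 465 in Rb1KO and 418 and 400 in WT, a difference of -0.24 ± 0.29 (adjusted p = 0.679).

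At 24 h, 833 of 10916 genes passed (7.63%), 453 of them higher (4.15%) and 380 lower (3.48%) in Rb1KO. The median difference over all genes tested was -0.07. A difference of at least 2-fold was reached by 154 of the higher and 115 of the lower genes. The arrays of the groups did not overlap for 826 of the 833 genes, which is to be read against the 27.9% of all genes tested without overlap. At an unadjusted p under 0.05 in limma, 22.4% of all genes tested differed, 9.68% being higher and 12.7% lower in Rb1KO. Every unadjusted count of a list below is to be read against these shares. Every count of called list members in this comparison with all arrays is to be read against the 4.15% called higher and 3.48% called lower. The genes followed here are the 20 largest rises and 20 largest falls among genes that passed, did not overlap, and had a mean signal above the median gene (677) in the higher group. Their differences ranged up to 3.98 for Hspa1b and down to -2.90 for 3110040M04Rik.

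**Figure D1:**
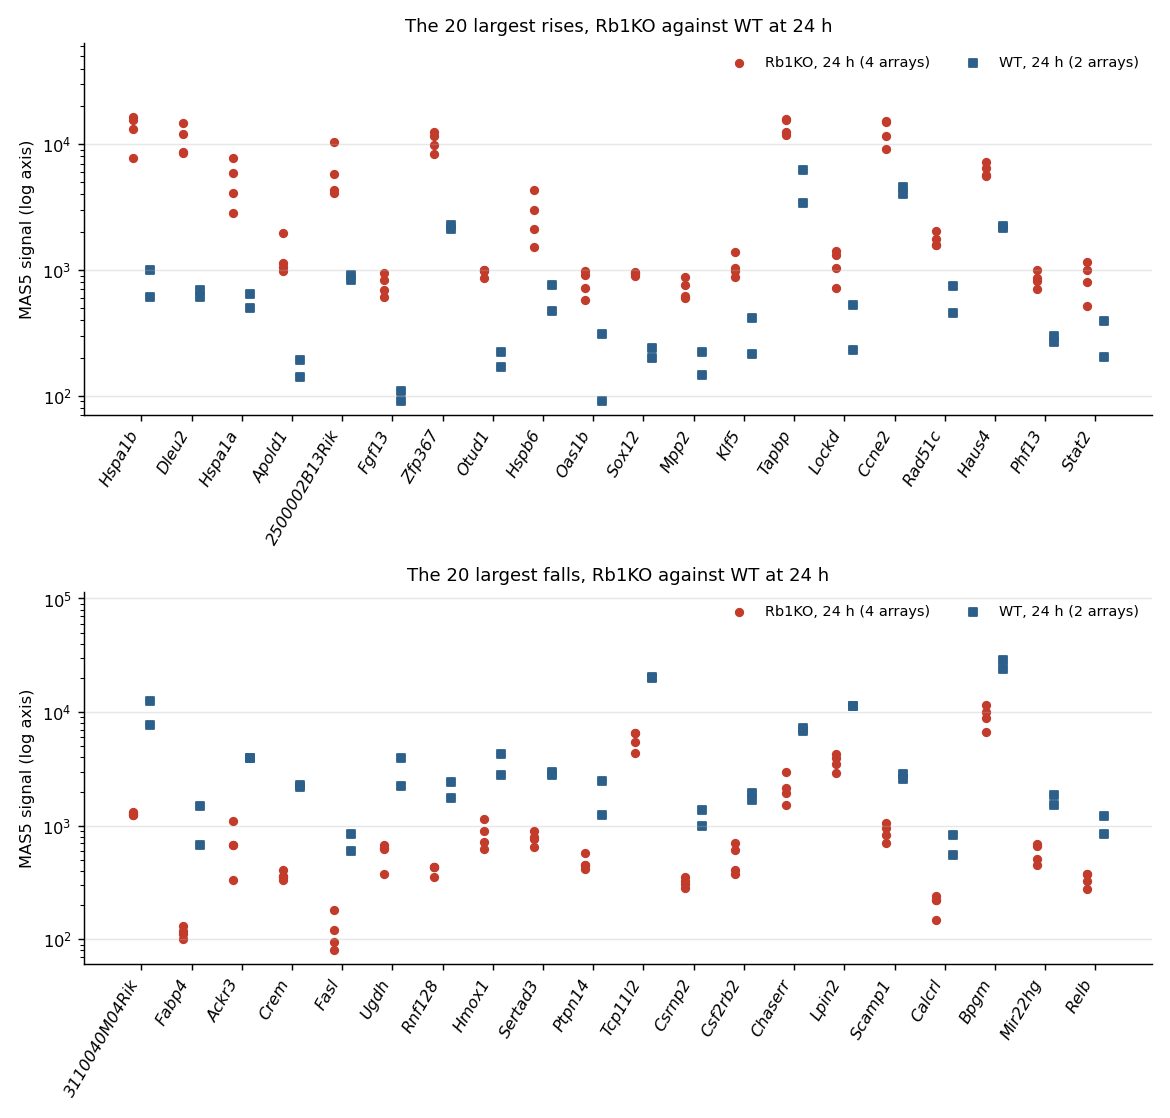
MAS5 signals (log axis) of the 20 largest rises (upper panel) and the 20 largest falls (lower panel) by array, with the 4 Rb1KO arrays as circles on the left of each gene and the 2 WT arrays as squares on the right. No gene shown has overlapping groups. The gap between groups is widest for Hspa1b and Dleu2 among the rises and for 3110040M04Rik and Crem among the falls.

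Zfp367, a zinc finger transcription factor gene, was the clearest rise among genes with E2F motifs at their start. It read 11723, 8378, 9902 and 12505 in Rb1KO and 2279 and 2133 in WT, a difference of 2.24 ± 0.18 (adjusted p = 2.8e-08). All 4 Rb1KO arrays lay far above both WT arrays. Rad51c, which acts in homologous recombination, read 2036, 1752, 1583 and 1583 in Rb1KO and 743 and 458 in WT, a difference of 1.52 ± 0.23 (adjusted p = 0.0002). Gfi1b, a transcriptional repressor needed for red cells and megakaryocytes, read 9267, 8379, 10447 and 7249 in Rb1KO and 3964 and 3131 in WT, a difference of 1.31 ± 0.33 (adjusted p = 0.017). Clspn, which encodes the replication checkpoint adaptor claspin, read 5385, 6158, 7254 and 7133 in Rb1KO and 3988 and 3365 in WT, a difference of 0.81 ± 0.15 (adjusted p = 0.00206). The groups of these 4 genes did not overlap. The calls of Zfp367 and Rad51c held in all 6 fits without 1 array, that of Clspn was lost without WT replicate 2, and that of Gfi1b when either WT array was left out.

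The promoters of these 4 genes are shown because a match to an E2F motif lies close to the gene start in each. They are RefSeq sequences of GRCm38.p6, 250 bases before to 50 after the start on the strand of the gene, with the matches to TTTCCCGC, TTTGGCGC or TTTCGCGC on either strand in capitals.
Zfp367, chr13:64153150-64153449, minus strand: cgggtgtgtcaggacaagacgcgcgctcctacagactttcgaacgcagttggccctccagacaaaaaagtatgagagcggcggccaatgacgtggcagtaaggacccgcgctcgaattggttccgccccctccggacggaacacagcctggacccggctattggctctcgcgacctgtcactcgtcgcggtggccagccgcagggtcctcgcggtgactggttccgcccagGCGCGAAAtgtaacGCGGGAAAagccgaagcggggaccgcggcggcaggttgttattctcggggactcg
Rad51c, chr11:87404457-87404756, minus strand: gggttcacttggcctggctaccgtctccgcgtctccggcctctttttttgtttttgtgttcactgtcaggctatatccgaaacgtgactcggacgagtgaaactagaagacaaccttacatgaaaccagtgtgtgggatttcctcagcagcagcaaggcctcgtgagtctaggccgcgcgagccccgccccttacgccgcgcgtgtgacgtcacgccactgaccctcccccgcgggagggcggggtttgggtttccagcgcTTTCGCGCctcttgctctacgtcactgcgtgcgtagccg
Gfi1b, chr2:28621933-28622232, minus strand: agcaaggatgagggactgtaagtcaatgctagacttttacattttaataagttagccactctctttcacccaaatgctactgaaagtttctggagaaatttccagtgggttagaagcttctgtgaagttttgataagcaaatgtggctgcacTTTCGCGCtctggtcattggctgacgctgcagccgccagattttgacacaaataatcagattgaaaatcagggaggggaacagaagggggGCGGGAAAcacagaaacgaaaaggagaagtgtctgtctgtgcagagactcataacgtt
Clspn, chr4:126556730-126557029, plus strand: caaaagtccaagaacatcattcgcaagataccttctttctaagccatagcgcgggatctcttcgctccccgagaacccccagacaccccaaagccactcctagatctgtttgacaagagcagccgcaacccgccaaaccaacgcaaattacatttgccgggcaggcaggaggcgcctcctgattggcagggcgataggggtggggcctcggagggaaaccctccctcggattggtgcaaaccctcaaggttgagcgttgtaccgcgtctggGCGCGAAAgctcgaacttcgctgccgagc
In Zfp367 the 2 matches begin -19 and -5 bases from the start, a minus sign meaning upstream, in Rad51c the match begins 11 bases from it, in Gfi1b the 2 begin -98 and -8 bases from it and in Clspn the match begins 21 bases from it. Zfp367 and Rad51c each have another start in the table whose promoter also holds 1 match. An E2F motif was found in at least 1 promoter of 44 of the 369 genes that rose and have a promoter in the table (11.9%), in 10 of the 311 that fell (3.22%) and in 391 of the 8902 genes tested (4.39%). Over all 32851 promoters of the table the share was 1.84%. Genes that fell with a match close to the start include Ackr3 and E2f3, where it begins -22 and -11 bases from it. A match is a string of letters and does not show that a factor bound there.

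The list of pocket proteins, E2F and DP factors had 3 rises and 2 falls among 13 genes tested, with a median difference of 0.26 against -0.07 over all genes. The rises were E2F factors that act as repressors. E2f7 read 3724, 3493, 3771 and 3676 in Rb1KO and 2197 and 1595 in WT, a difference of 0.96 ± 0.17 (adjusted p = 0.000829). E2f8 rose by 0.92 ± 0.18 and E2f6 by 0.84 ± 0.14 (adjusted p = 0.0021 and 0.000417). The other probe set of E2f6 was nearly level, with a difference of 0.0045. The falls were Rb1 itself and E2f3, an activating E2F, with a difference of -0.68 ± 0.20 (adjusted p = 0.0411). The call of E2f3 was lost in 5 of the 6 fits without 1 array, those of E2f7 and E2f8 without WT replicate 2, and that of E2f6 in none. E2f1, another activator, read 1374, 1456, 1244 and 1279 in Rb1KO and 669 and 838 in WT without overlap and did not pass (0.81 ± 0.26, adjusted p = 0.0607).

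Genes of the cell cycle lists that passed were higher in Rb1KO apart from Rb1, E2f3 and Cdkn2b. Of the G1/S cyclins and kinases, 4 of 13 genes tested rose and none fell, with 6 higher and 2 lower at an unadjusted p under 0.05, and the median was 0.23. Ccne2 and Ccne1 encode cyclin E, the partner of Cdk2 at the entry to S phase. Ccne1 read 3748, 3603, 4306 and 3079 in Rb1KO and 1899 and 2142 in WT, a difference of 0.85 ± 0.19 (adjusted p = 0.0069). Fbxo5, the inhibitor of the anaphase-promoting complex known as Emi1, read 17869, 11799, 15816 and 15972 in Rb1KO and 7954 and 5806 in WT, a difference of 1.16 ± 0.22 (adjusted p = 0.00199). Skp2, the ubiquitin ligase subunit that targets p27, rose by 0.72 ± 0.20 (adjusted p = 0.0278), and its call held in 2 of the 6 fits without 1 array. Without WT replicate 1 this list had 2 rises, the calls of Ccne1 and Skp2 being lost. Without WT replicate 2 it had 3, and the calls of Fbxo5 and Skp2 were lost.

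In DNA replication, 7 of 35 genes tested rose and none fell (14 higher and 0 lower at an unadjusted p under 0.05 in limma), with a median of 0.34. The replication protein A subunit Rpa2 read 3957, 4459.7, 3244 and 3739 in Rb1KO and 1958 and 2012 in WT, a difference of 0.94 ± 0.19 (adjusted p = 0.00268), and its call held in all 6 fits without 1 array. The primase subunit Prim1 read 11122, 10532, 10572 and 11590 in Rb1KO and 6445 and 7063 in WT, a difference of 0.70 ± 0.13 (adjusted p = 0.00225). The others besides Clspn were Orc6, Cdc45, Cdc6 and Rfc3, with rises between 0.48 and 0.68, and the calls of Cdc6 and Rfc3 each held in only 1 of the 6 fits without 1 array. Without WT replicate 1 the calls of Prim1, Orc6, Cdc45, Cdc6 and Rfc3 were lost. Without WT replicate 2 those of Clspn, Orc6, Cdc45, Cdc6 and Rfc3 were lost. In the fit without the 4 arrays of 0 h and 24 h that correlated least with their time, 11 of the 35 genes rose. That count is to be read against 1335 genes called in that fit in either direction, in place of 833 with all arrays. Of the genes of deoxynucleotide synthesis, 2 of 9 rose, the reductase subunit Rrm1 and the thymidylate synthase Tyms, by 0.65 and 0.90, and both calls were lost when either WT array was left out. Of the histone supply genes, 3 of 9 rose. H2ax, the histone variant phosphorylated at DNA breaks, read 21792, 14352, 17458 and 14552 in Rb1KO and 8829 and 6944 in WT, a difference of 1.10 ± 0.18 (adjusted p = 0.000484). Asf1b, a histone chaperone, read 24680.3, 13659, 16289.8 and 15783 in Rb1KO and 9582 and 8026 in WT, a difference of 0.97 ± 0.17 (adjusted p = 0.000829). The calls of H2ax, Asf1b and the histone mRNA-binding Slbp held in all 6 fits without 1 array.

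For mitosis and cytokinesis, 6 of 39 genes tested rose and none fell, with 13 higher and 0 lower at an unadjusted p under 0.05 in limma, and a median of 0.30. The kinase Cdk1 read 13301, 9828, 10459 and 9864 in Rb1KO and 7328 and 6365 in WT, a difference of 0.66 ± 0.13 (adjusted p = 0.00277). Ndc80, a kinetochore subunit that holds microtubules, read 2889.5, 2708, 2696 and 3073 in Rb1KO and 1474 and 977 in WT, a difference of 1.22 ± 0.35 (adjusted p = 0.0348). The transcription factor Mybl2, the spindle factors Tpx2 and Prc1 and the cytokinesis regulator Racgap1 also rose, by 0.49 to 0.98. The calls of all 6 were lost without WT replicate 2, and those of Ndc80, Mybl2 and Prc1 held in 2, 2 and 1 of the 6 fits without 1 array. In the fit without the 4 arrays of 0 h and 24 h that correlated least with their time, 13 of the 39 genes rose. Here too the background is higher, with 1335 genes called in that fit in either direction against 833 with all arrays. Haus4, a subunit of the augmin complex that nucleates spindle microtubules and no member of the list, was among the 20 largest rises with 7250, 5702, 5603 and 6511 in Rb1KO and 2256 and 2164 in WT, a difference of 1.48 ± 0.14 (adjusted p = 5.03e-07). Of 14 genes of homologous recombination, Rad51c and Brca1 rose and none fell. Brca1 rose by 0.63 ± 0.17 (adjusted p = 0.0284). Its call was lost when either WT array was left out and held in 2 of the 6 fits without 1 array.

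Inhibitors of cyclin-dependent kinases moved in both directions. Cdkn2c, which encodes p18 and blocks Cdk4 and Cdk6, read 8707, 7309, 7226 and 8622 in Rb1KO and 4049 and 3195 in WT, a difference of 1.13 ± 0.17 (adjusted p = 0.000139). Cdkn2d, which encodes p19 of the same family, read 11932, 9336, 10321 and 10721 in Rb1KO and 7221 and 4566 in WT, a difference of 0.87 ± 0.16 (adjusted p = 0.00143). Cdkn2b, which encodes p15, was dim and fell, with 98.0, 171, 96.0 and 78.4 in Rb1KO and 343 and 559 in WT, a difference of -1.76 ± 0.38 (adjusted p = 0.00486). Cdkn1a, which encodes p21, read 31928, 18125, 19289.8 and 21161 in Rb1KO and 11914 and 13813 in WT, and its difference did not pass (0.78 ± 0.25, adjusted p = 0.0577). The groups of these 4 genes did not overlap. The calls of Cdkn2d and Cdkn2b were lost without WT replicate 2. Among 23 targets of p53 tested, Ei24 rose and Gadd45a fell, with differences of 0.66 and -1.31, and with 5 higher and 4 lower at an unadjusted p under 0.05. Over all genes tested, 4.15% were called higher and 3.48% lower. Of the 12 BCL2 family genes, 1 rose: Bcl2l11, which encodes the death-promoting protein Bim, read 1918, 1778, 1601 and 2165 in Rb1KO and 912 and 579.7 in WT, a difference of 1.31 ± 0.24 (adjusted p = 0.00105), and all 5 of its probe sets went the same way. The calls of Bcl2l11 and Ei24 were lost without WT replicate 2, that of Ei24 also without WT replicate 1.

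Genes of the heat shock response split into a few large rises and many with no call. Hspa1a and Hspa1b encode near-identical stress-inducible Hsp70 chaperones, so their probe sets may share signal. Hspa1b read 16528, 7799, 13287 and 15472 in Rb1KO and 605 and 1000.1 in WT, and Hspa1a read 7723, 2816, 4073 and 5961 in Rb1KO and 503 and 640.4 in WT, a difference of 3.01 ± 0.31 (adjusted p = 1.56e-06). Hspb6, a small heat shock protein gene, read 4349.9, 1512, 2984 and 2121 in Rb1KO and 760.4 and 469 in WT, a difference of 2.03 ± 0.29 (adjusted p = 8.45e-05). Rb1KO replicate 1 was the highest array for these 3 genes. Dnajb1, the Hsp40 partner of Hsp70, read 12700.4, 6824, 7336 and 10448 in Rb1KO and 4691 and 4832 in WT, a difference of 0.92 ± 0.21 (adjusted p = 0.00749), and lost the call when either WT array was left out. Of 13 inducible heat shock genes tested, a list that does not hold Hspb6, 3 rose and 1 fell, the mitochondrial chaperonin gene Hspe1 (-0.60 ± 0.18, adjusted p = 0.041). The call of Hspe1 held in 2 of the 6 fits without 1 array. The list's median was 0.15.

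The promoters of Hspa1b and Hspb6 are shown because they hold a match to the core of a heat shock element, searched as GAANNTTC or TTCNNGAA on either strand and printed in capitals (RefSeq, GRCm38.p6).
Hspa1b, chr17:34959189-34959488, minus strand: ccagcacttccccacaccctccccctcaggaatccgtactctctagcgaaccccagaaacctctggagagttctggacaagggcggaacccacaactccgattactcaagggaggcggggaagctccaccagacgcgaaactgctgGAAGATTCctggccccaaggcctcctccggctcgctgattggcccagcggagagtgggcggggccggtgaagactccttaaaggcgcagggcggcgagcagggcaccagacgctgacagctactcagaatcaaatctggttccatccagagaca
Hspb6, chr7:30553051-30553350, plus strand: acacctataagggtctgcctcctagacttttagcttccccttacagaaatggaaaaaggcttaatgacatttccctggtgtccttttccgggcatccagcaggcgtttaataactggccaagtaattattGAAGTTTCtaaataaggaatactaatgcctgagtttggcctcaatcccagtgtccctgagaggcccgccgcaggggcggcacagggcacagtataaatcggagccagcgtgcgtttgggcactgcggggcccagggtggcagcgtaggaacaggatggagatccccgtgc
The matches begin -104 and -120 bases from the start. Genes that fell hold matches too: in Hspe1 there are 3, which begin -89, -84 and -79 bases from the start, and Tcp11l2, Csrnp2 and Fasl also have at least 1. This short motif is common: it was found for 52 of the 369 genes that rose, 45 of the 311 that fell and 1247 of the 8902 tested. The shares of genes that rose against all genes tested were 4.88% against 3.57% for the cAMP response element TGACGTCA, 4.88% against 6.12% for the AP-1 motif TGANTCA, 18.4% against 16.9% for the antioxidant element TGACNNNGC and 16.3% against 14.3% for the cell cycle motif TTTGAA, each searched on both strands. Among the genes that fell the shares were 3.54%, 8.04%, 18.6% and 14.8% in that order.

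The other large rises came from varied classes. Apold1, an immediate early gene of endothelial cells, read 985, 1134, 1051 and 1982 in Rb1KO and 139.8 and 193 in WT, a difference of 2.69 ± 0.25 (adjusted p = 5.03e-07), with Rb1KO replicate 4 the highest. Otud1, a deubiquitinase gene, read 1007, 861, 982 and 1004 in Rb1KO and 168 and 223 in WT, a difference of 2.14 ± 0.22 (adjusted p = 1.56e-06). The transcription factor gene Sox12 read 964, 939, 933 and 888 in Rb1KO and 201 and 242 in WT, a difference of 1.93 ± 0.24 (adjusted p = 1.94e-05). All 4 Rb1KO arrays of Sox12 lay close together. Klf5, another transcription factor gene, read 1383, 1038, 978 and 883 in Rb1KO and 414 and 214 in WT, a difference of 1.71 ± 0.24 (adjusted p = 8.33e-05), and 1 of its 3 probe sets went the other way. Tapbp, which encodes the peptide-loading chaperone tapasin, read 12532, 15480, 15855 and 11766 in Rb1KO and 3439.7 and 6225 in WT, a difference of 1.57 ± 0.24 (adjusted p = 0.000214). Phf13, a reader of methylated histone H3, read 999, 709.8, 869.9 and 813 in Rb1KO and 265 and 299.7 in WT, a difference of 1.48 ± 0.18 (adjusted p = 2.27e-05). The unannotated 2500002B13Rik, the scaffold gene Mpp2 and Lockd, a long noncoding RNA gene next to Cdkn1b, rose by 2.67, 1.80 and 1.55. The call of Mpp2 was lost without WT replicate 2 and that of Lockd in 4 of the 6 fits without 1 array.

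Several of the largest falls were genes that were far brighter in WT cells at 24 h than in either genotype at 0 h. The unannotated 3110040M04Rik read 1254, 1249, 1293 and 1312 in Rb1KO and 7670 and 12412 in WT, a difference of -2.90 ± 0.23 (adjusted p = 2.8e-08). At 0 h it lay between 449.5 and 818 in Rb1KO and between 417 and 514 in WT. Lpin2, a phosphatidate phosphatase gene, read 3907, 2929, 3497 and 4276 in Rb1KO and 11226 and 11211 in WT, a difference of -1.62 ± 0.16 (adjusted p = 9.83e-07), and at 0 h it lay between 2341 and 3507 in Rb1KO and 3616 and 3922 in WT. The 4 Rb1KO arrays at 24 h thus lay near their level at 0 h for Lpin2 and not for 3110040M04Rik. Csrnp2, which encodes a nuclear protein, read 356, 326, 280.2 and 308 in Rb1KO and 1371 and 1003 in WT, a difference of -1.79 ± 0.23 (adjusted p = 2.61e-05). Sertad3, a transcriptional coregulator gene, read 795, 647, 759.5 and 893 in Rb1KO and 2773 and 2980.3 in WT, a difference of -1.86 ± 0.21 (adjusted p = 5.52e-06). Scamp1, a carrier protein of the secretory pathway, read 710.1, 836, 959.8 and 1063 in Rb1KO and 2855 and 2586 in WT, a difference of -1.59 ± 0.19 (adjusted p = 1.94e-05). The long noncoding RNA Chaserr, which lies upstream of Chd2, and Tcp11l2, which encodes a protein related to the t-complex protein Tcp11, fell with differences of -1.73 and -1.82.

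Enzymes, receptors and signalling genes made up the rest of these falls. Ugdh, which makes UDP-glucuronate for glycosaminoglycans, read 374, 639.8, 624 and 679 in Rb1KO and 2243 and 3951 in WT, a difference of -2.33 ± 0.24 (adjusted p = 1.56e-06). Rnf128, a membrane ubiquitin ligase gene known from T cell anergy, read 429.6, 434, 433 and 352 in Rb1KO and 2424 and 1739 in WT, a difference of -2.24 ± 0.18 (adjusted p = 2.8e-08). All 4 Rb1KO arrays of Rnf128 lay far below both WT arrays. Ptpn14, a tyrosine phosphatase gene, read 447, 418, 449.7 and 579.5 in Rb1KO and 1249 and 2461 in WT, a difference of -1.83 ± 0.25 (adjusted p = 7.39e-05), with WT replicate 2 well above WT replicate 1. Csf2rb2, the beta subunit of the mouse interleukin 3 receptor, read 612, 702, 379 and 411 in Rb1KO and 1700.3 and 1951 in WT, a difference of -1.78 ± 0.27 (adjusted p = 0.0002). Calcrl, the receptor for adrenomedullin and CGRP, read 240.4, 147, 222 and 222 in Rb1KO and 833 and 547 in WT, a difference of -1.58 ± 0.28 (adjusted p = 0.00108), and lost the call without WT replicate 1. For Ptpn14 and Calcrl, 1 of 3 probe sets went the other way. Relb, an NF-kB subunit gene, fell by 1.51 on the log2 scale (adjusted p = 0.019) and lost the call when either WT array was left out. Mir22hg, the host gene of miR-22, read 450.3, 508, 686 and 659 in Rb1KO and 1859 and 1508 in WT, a difference of -1.51 ± 0.23 (adjusted p = 0.000169). In all, 16 of the 20 largest rises and 17 of the 20 largest falls passed in every fit without 1 array.

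**Figure D2:**
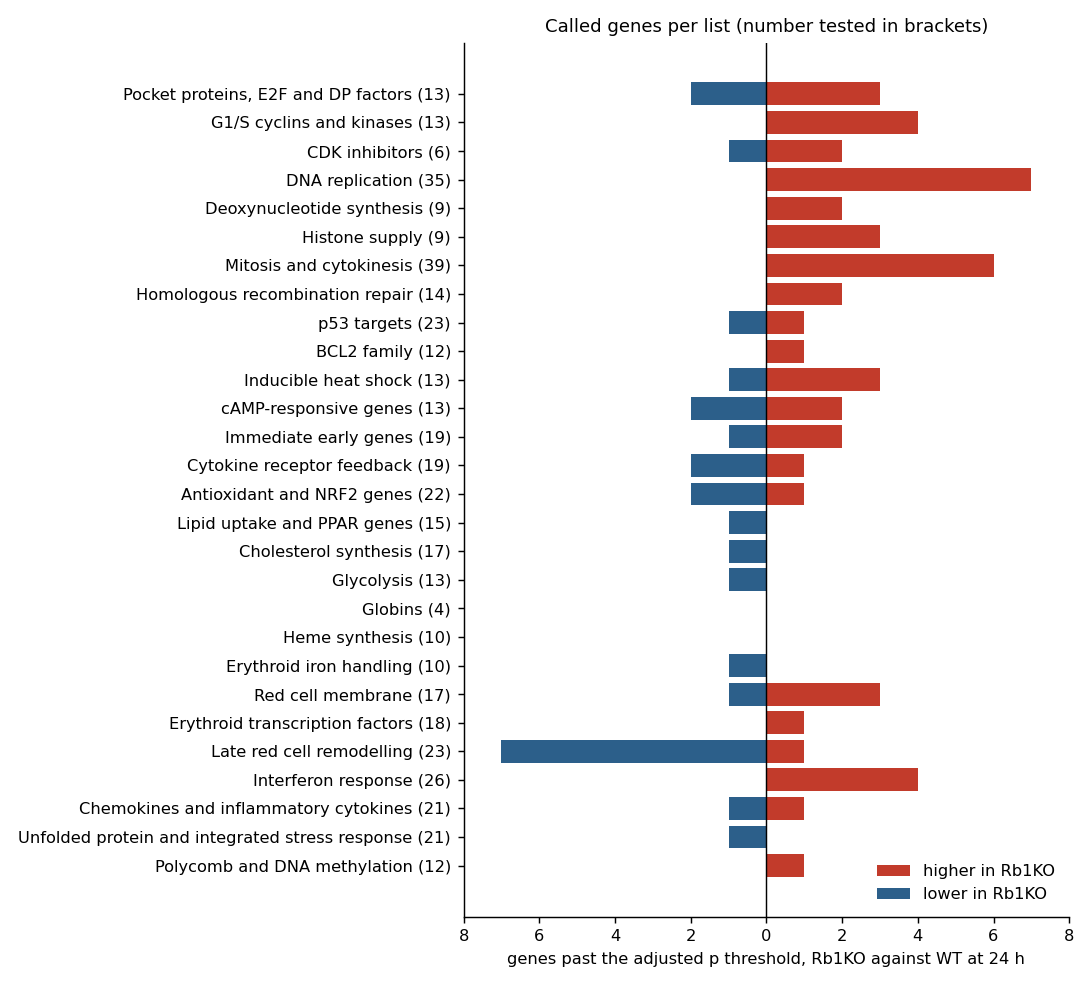
Number of genes per list that passed in Rb1KO against WT at 24 h, with genes higher in Rb1KO to the right and genes lower in Rb1KO to the left of 0, and the number tested in brackets. DNA replication (7 higher, 0 lower) and mitosis (6 higher, 0 lower) reach furthest to the right, late red cell remodelling (1 higher, 7 lower) furthest to the left.

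The red cell programme was described by 6 lists, and most of their members did not pass. None of the 4 globin genes tested passed in limma, and none did at an unadjusted p under 0.05. The embryonic beta-like globin Hbb-y read 142908, 45657, 59746 and 65515 in Rb1KO and 64243 and 69526 in WT, a difference of 0.09 ± 0.34 (adjusted p = 0.909). None of the 10 genes of heme synthesis passed, with 0 higher and 1 lower at an unadjusted p under 0.05. Alas2, the first enzyme of erythroid heme synthesis, read 72574, 32286, 41923 and 39928 in Rb1KO and 53356 and 52160.3 in WT, a difference of -0.25 ± 0.27 (adjusted p = 0.636), and Rb1KO replicate 1 was above both WT arrays while the other 3 were below. Of 18 erythroid transcription factor genes only Gfi1b passed, with 1 higher and 1 lower at an unadjusted p under 0.05. Gata1 read 10924, 8934, 10222 and 7555 in Rb1KO and 9280.2 and 8473 in WT (0.07 ± 0.18, adjusted p = 0.854). Of 10 genes of iron handling, 1 fell: Ncoa4, the receptor that delivers ferritin for breakdown (a difference of -0.62, adjusted p = 0.0335). Its call was lost when either WT array was left out and held in 2 of the 6 fits without 1 array.

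Among genes of the red cell membrane more passed as higher than as lower, and among genes of late remodelling more passed as lower. Of 17 membrane genes tested, 3 rose and 1 fell. Icam4, an erythroid adhesion molecule, read 20409.7, 14561, 15238 and 14083 in Rb1KO and 9720 and 7461 in WT, a difference of 0.90 ± 0.22 (adjusted p = 0.0143). Sptb, beta-spectrin, read 7805, 6792, 10339.6 and 6674 in Rb1KO and 4882 and 3470.3 in WT, a difference of 0.91 ± 0.23 (adjusted p = 0.0159). Rhd, of the Rh blood group complex, read 43767, 25779.8, 29803 and 27796 in Rb1KO and 20526 and 17486 in WT, a difference of 0.71 ± 0.20 (adjusted p = 0.0291). The fall was Xk, the Kell-associated protein, with a difference of -1.06 (adjusted p = 0.00582), and its second probe set went the other way. No membrane gene passed without WT replicate 2, and 2 rose without WT replicate 1.

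The list of late red cell remodelling holds mostly ubiquitin and autophagy genes that clear proteins and organelles. Of its 23 genes tested, 7 fell and 1 rose (10 lower and 3 higher at an unadjusted p under 0.05), and the list's median was -0.28. Ube2o, the ubiquitin enzyme that marks ribosomal proteins in reticulocytes, read 3721, 3482, 4425 and 3506 in Rb1KO and 10268 and 10798 in WT, a difference of -1.48 ± 0.23 (adjusted p = 0.000221). The Rb1KO arrays lay close together and well below both WT arrays. Sqstm1, the autophagy receptor p62, read 6303, 6501, 5254 and 5524 in Rb1KO and 10435 and 12949.7 in WT, a difference of -0.98 ± 0.17 (adjusted p = 0.000808). Fbxo30, a ubiquitin ligase subunit, read 6597, 4746, 6362 and 8209.6 in Rb1KO and 13409.7 and 11473 in WT, a difference of -0.96 ± 0.18 (adjusted p = 0.00158). Wdr26, a subunit of the CTLH ubiquitin ligase, read 9866, 10015, 14667 and 12401 in Rb1KO and 21296 and 19922 in WT, a difference of -0.83 ± 0.16 (adjusted p = 0.00253). Gabarapl1, a ubiquitin-like protein of autophagosomes, Ube2h, the ubiquitin enzyme that works with CTLH, and Ulk1, a kinase that starts autophagy, fell with differences of -0.81, -0.84 and -0.61. Their calls were lost without WT replicate 1, and that of Ulk1 held in only 1 of the 6 fits without 1 array. Those of Ube2o, Sqstm1, Fbxo30 and Wdr26 held in all 6 of these fits. The rise was Ulk2, the relative of Ulk1 (0.95, adjusted p = 0.00841). Without WT replicate 1, 4 of the 23 fell and none rose, and without WT replicate 2, 6 fell and none rose, so the single rise was lost. Bpgm, which makes the 2,3-bisphosphoglycerate that loosens oxygen from haemoglobin, was the 1 of 13 glycolytic genes tested that passed, with 11454, 6679, 8824 and 9927 in Rb1KO and 28521 and 24117 in WT, a difference of -1.53 ± 0.22 (adjusted p = 8.45e-05). The median over all 13 was -0.33, with 4 lower and 0 higher at an unadjusted p under 0.05.

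Genes of signalling and stress lists passed in small numbers, to be read against 4.15% of all genes called higher and 3.48% called lower. Cish, a feedback inhibitor of cytokine receptors that is induced through Stat5, read 2916, 2881, 4277 and 2477 in Rb1KO and 6444 and 5718 in WT, a difference of -0.98 ± 0.17 (adjusted p = 0.000961). Of 19 genes of cytokine receptor feedback, Cish and the kinase gene Pim1 fell and Socs4 rose. The calls of Pim1 and Socs4 were lost when either WT array was left out and held in 3 and 2 of the 6 fits without 1 array. Of 13 cAMP-responsive genes, Pde3b and Crem fell. Pde3b, a phosphodiesterase that breaks down cAMP, read 940.2, 609, 604 and 705 in Rb1KO and 1813 and 2147 in WT. Its difference was -1.45 ± 0.24 (adjusted p = 0.000417 in limma). Of the 4 probe sets of Crem, 3 were lower in Rb1KO and 1 was nearly level, with a difference of 0.057. Pde4d, another phosphodiesterase, rose with 633, 503, 617 and 789.6 in Rb1KO and 348 and 181 in WT, a difference of 1.21 ± 0.23 (adjusted p = 0.0021), as did the phosphatase gene Dusp1. Of 19 immediate early genes, Ier3 and Dusp1 rose and Klf6 fell. Ier3, a survival factor of the NF-kB response, read 2106, 2245, 1829 and 2806 in Rb1KO and 1075 and 944 in WT, a difference of 1.12 ± 0.18 (adjusted p = 0.000419). Of 22 antioxidant genes, the quinone reductase gene Nqo1 rose and the haem oxygenase Hmox1 and catalase (Cat) fell. At an unadjusted p under 0.05 in limma, 2 cytokine receptor feedback, 2 cAMP-responsive, 2 immediate early and 4 antioxidant genes were higher. In the same order of lists, 3, 3, 4 and 4 genes were lower. Nqo1 read 4845, 3594, 3765 and 4414 in Rb1KO and 2021 and 2321 in WT, a difference of 0.92 ± 0.24 (adjusted p = 0.0213). Cat read 14538, 11038, 11869 and 14441 in Rb1KO and 24724 and 19077 in WT, a difference of -0.75 ± 0.18 (adjusted p = 0.0135). The call of Nqo1 was lost when either WT array was left out, that of Cat without WT replicate 1 and that of Hmox1 without WT replicate 2. The calls of Pde4d and Dusp1 were lost without WT replicate 2 and that of Klf6 when either WT array was left out, while those of Cish, Pde3b, Crem and Ier3 held in all 6 fits without 1 array.

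The remaining lists gave 1 call or none in each direction. Of 21 genes of the unfolded protein response, Xbp1, its transcription factor, fell with 5078, 3922, 4282 and 4732 in Rb1KO and 8283 and 8718 in WT, a difference of -0.92 ± 0.16 (adjusted p = 0.000645). Of 17 genes of cholesterol synthesis, the isomerase gene Idi1 fell by 0.58 on the log2 scale, a call lost when either WT array was left out. Of 12 Polycomb and DNA methylation genes, Uhrf1, the partner of the maintenance methyltransferase, rose by 0.53, and its call held in 1 of the 6 fits without 1 array. Of 15 genes of lipid uptake, Fabp4 fell (0 higher and 5 lower at an unadjusted p under 0.05). Fabp4 read 111, 118, 101 and 131 in Rb1KO and 679.7 and 1485 in WT. Of 21 chemokine and cytokine genes, Cxcl10 rose and the scavenger receptor Ackr3 fell. Ackr3 read 1102, 332, 674 and 672 in Rb1KO and 3957 and 3942 in WT.

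The calls of interferon-responsive genes depended on WT replicate 1. Of 26 tested, 4 rose and none fell (8 higher and 0 lower at an unadjusted p under 0.05 in limma), with a median of 0.47. In DKO against p107KO at 24 h, which uses no WT array, 24 of the 26 were above 0, with a median of 0.61. That comparison rests on 1 DKO array, whose level enters all 26 values. Over all genes tested 44.9% were above 0 there, with a median of -0.06. For Rb1KO against WT at 48 h, 6 of the 26 were above 0, with a median of -0.33. Stat2, the transducer of type I interferon, read 515, 1153, 799.8 and 996 in Rb1KO and 202 and 392 in WT, a difference of 1.45 ± 0.29 (adjusted p = 0.00303). Bst2, the virus tether tetherin, read 1835, 3802, 1559.8 and 1988 in Rb1KO and 515 and 1468 in WT, a difference of 1.27 ± 0.39 (adjusted p = 0.047). Usp18, the enzyme that removes Isg15, read 12299, 15556, 12476 and 13892 in Rb1KO and 3440.3 and 11259 in WT. The calls of Bst2 and Usp18 held in 3 and 1 of the 6 fits without 1 array. Oas1b, of the oligoadenylate synthetase family and no member of the list, read 581, 988, 717 and 910.1 in Rb1KO and 91.5 and 311 in WT, a difference of 1.98 ± 0.47 (adjusted p = 0.0108). WT replicate 1 was the lowest of the 6 arrays for all 4 genes. Without it none of the 26 passed, and without WT replicate 2, which left replicate 1 as the only WT array, 7 rose.

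Markers of other cells were looked for with lists of their own. None of the 18 hepatocyte markers passed or had an unadjusted p under 0.05 in limma, and their summed signal was 7508 to 18626 in Rb1KO and 8911 to 9358 in WT, replicate 1 being the highest of the Rb1KO arrays. None of 14 macrophage markers passed (1 lower at an unadjusted p under 0.05), with a summed signal over the 15 measured of 16923 to 43685 in Rb1KO and 28036 to 48959 in WT and a median difference of -0.38. Most of that sum was lysozyme (Lyz2), while the macrophage receptor Cd163 read 18.8, 2.4, 4.7 and 15.2 in Rb1KO and 1.7 and 2.8 in WT. None of 11 neutrophil markers passed or had an unadjusted p under 0.05, with 110128 to 315151 in Rb1KO and 176226 to 233033 in WT and a median of -0.46. Of 14 megakaryocyte markers 1 fell, Plek, with a median of -0.53, and of 6 mast cell markers 1 fell, Hdc, with a median of -0.74. At an unadjusted p under 0.05, 6 of the megakaryocyte and 3 of the mast cell markers were lower and none was higher. Their summed signals were 13663 to 21735 in Rb1KO and 18351 to 29935 in WT for megakaryocytes, and 1528 to 4075 in Rb1KO and 3490.4 to 3907 in WT for the 11 mast cell markers measured. Of 12 stem and progenitor markers Mllt3 fell, of 13 endothelial markers Esam and of 6 lymphoid markers Fasl, and none of 14 stromal markers passed (1 higher at an unadjusted p under 0.05). At that unadjusted threshold 2 stem and progenitor markers were lower and none higher. In endothelial markers 2 were higher and 1 lower, and 1 lymphoid marker was lower. Several stromal and hepatocyte markers were dim at 24 h, so their lack of a call says little. Col3a1 lay between 8.7 and 101 in Rb1KO at 24 h, against 3195 to 5744 at 0 h. Apob lay between 16.9 and 89.6 in Rb1KO at 24 h, against 2100 to 7085 at 0 h. Others, such as Afp and Vim, were bright at 24 h. In RNA from a mixed tissue, fewer cells of a type and less RNA per cell cannot be told apart, and the part of these lists in the differences above was not tested.

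**Figure D3:**
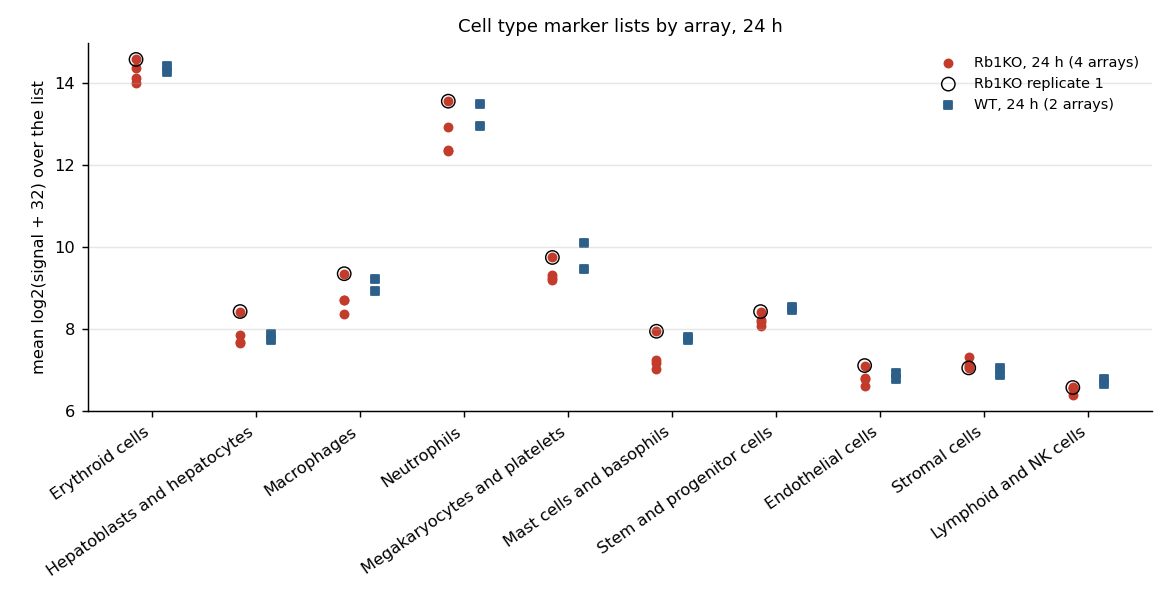
Mean log2(signal + 32) of each cell type marker list on each array at 24 h, with the 4 Rb1KO arrays as circles on the left (replicate 1 ringed) and the 2 WT arrays as squares on the right. The ringed array is the highest of the Rb1KO arrays for 8 of the 10 lists.

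The same loss was measured on arrays of other cells by setting DKO against p107KO at 24 h, where neither group has Rbl1. With 1 DKO array and 2 p107KO arrays, 293 genes passed (2.68%), 138 higher (1.26%) and 155 lower (1.42%), with the lone DKO array assumed to vary like the other groups. Of the 453 genes that rose in Rb1KO against WT, 85 also rose here (18.8% of those 453 and 61.6% of the 138), and 407 were above 0 (89.8%, against 44.9% of all genes tested). Of the 380 that fell, 80 also fell (21.1% of those 380 and 51.6% of the 155), and 295 were below 0 (77.6%, against 55.1%). The 20 largest rises were all above 0 in DKO against p107KO and 11 passed, with a median of 1.52 against 1.96 in Rb1KO against WT. The 20 largest falls were all below 0 in it and 15 passed, with a median of -1.99 against -1.83. Apold1 read 1241 in DKO and 144 and 153 in p107KO. Ube2o read 1753 in DKO and 8276 and 7175 in p107KO, a difference of -2.12 (adjusted p = 0.000586). Of the 23 remodelling genes, 8 fell and none rose in DKO against p107KO. Sox12 read 387 in DKO and 380.2 and 247 in p107KO and did not pass (adjusted p = 0.73), and neither did Hspb6 (adjusted p = 0.308). Cdkn1a, which had not passed in Rb1KO against WT, read 22330.1 in DKO and 6641 and 4885 in p107KO and passed here. The 1 gene that passed in both comparisons with opposite signs was Mrpl39, a mitochondrial ribosome gene, at 5511, 5282, 5545 and 5692 in Rb1KO and 8019 and 9258 in WT but 9361 in DKO and 3827 and 5679 in p107KO. This gene was chosen after its values were seen.

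**Figure D4:**
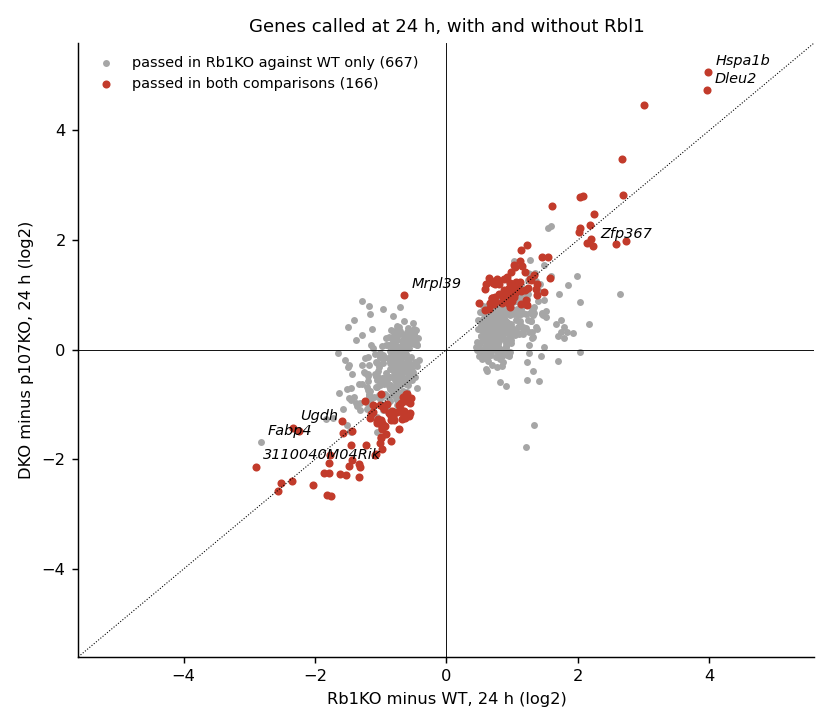
Log2 difference of DKO minus p107KO (vertical axis) against Rb1KO minus WT (horizontal axis), both at 24 h, for the genes that passed in Rb1KO against WT, with genes that passed in both comparisons in red and the dotted line marking equal differences. Most points lie in the quadrants of equal sign, and the 1 red point in an opposite quadrant is Mrpl39.

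The comparison of p107KO with WT at 24 h uses the same WT arrays, so its values are given beside those of Rb1KO only. Over all genes 3 passed (0.0275%), 2 higher (0.0183%) and 1 lower (0.00916%), and none of the 40 genes followed did. The median difference of the 20 falls was -0.71 in p107KO and -1.83 in Rb1KO, each against WT. For 3110040M04Rik the p107KO arrays read 3740.2 and 4716, between the Rb1KO and the WT arrays. For Rnf128 they read 992 and 1191, likewise between the groups. For the 20 rises the median was 0.12 in p107KO and 1.96 in Rb1KO.

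The same 40 genes were also followed at 0 h and 48 h. At 0 h, on other arrays, the 20 rises had a median difference of 0.82 and 9 passed, and at 48 h, where the arrays labelled Rb1KO did not show a called fall of Rb1, the median was 2.33 and 17 passed. The 20 falls had a median of -0.10 at 0 h, where 1 passed, Tcp11l2, and of -1.42 at 48 h, where 17 passed. Those counts are to be read against 0.614% of all genes called at 0 h (0.54% higher and 0.0733% lower) and 10.4% at 48 h (7.46% higher and 2.91% lower). The change of the Rb1KO minus WT difference between 0 h and 24 h was itself tested: 90 genes passed (0.824%), 35 with a higher (0.321%) and 55 with a lower (0.504%) difference at 24 h, among them 7 of the 20 rises and 15 of the 20 falls. These counts rest on the same 24 h arrays that chose the 40 genes and are a description. Without WT replicate 1 or 2 of 24 h, 53 and 44 genes passed, and without WT replicate 1, 2 or 3 of 0 h, 49, 52 and 54 passed. Of all genes that rose at 24 h, 40 also rose at 0 h (8.83% of 453, 67.8% of the 59 at 0 h) and 321 at 48 h (70.9% of 453, 39.4% of the 814 at 48 h). Of those that fell, 5 also fell at 0 h (1.32% of 380, 62.5% of the 8 at 0 h) and 157 at 48 h (41.3% of 380, 49.4% of the 318 at 48 h).

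Single genes showed several courses. Zfp367 was higher in Rb1KO at each time: at 0 h it lay between 5014 and 7487 in Rb1KO and 2273 and 2796 in WT, and at 48 h between 7574 and 10025 on the arrays labelled Rb1KO and 652 and 725 in WT. The WT arrays were lowest at 48 h. Apold1 overlapped at 0 h, with 157 and 265 in Rb1KO and 137 and 206 in WT, and the difference grew by 2.56 ± 0.33 to 24 h (adjusted p = 0.000239). Haus4 grew by 1.36 ± 0.18 (adjusted p = 0.000257), and Nrm, which encodes the nuclear membrane protein nurim, by 1.66 ± 0.22 (adjusted p = 0.000257). Nrm read 1782, 1593, 1472 and 1493 in Rb1KO and 579 and 598 in WT at 24 h. Its second probe set went the other way. For Rnf128 the Rb1KO arrays at 24 h lay below those at both other times, which were 1840.1 and 2594 at 0 h and 2179 and 3343 at 48 h, while WT lay between 2374 and 2756 at 0 h and 6588 and 6887 at 48 h. Ugdh and Lpin2 were at 2148 and 2682 and 9495 and 9776 on the arrays labelled Rb1KO at 48 h, against 5977 and 9554 and 19376 and 22496 in WT.

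**Figure D5:**
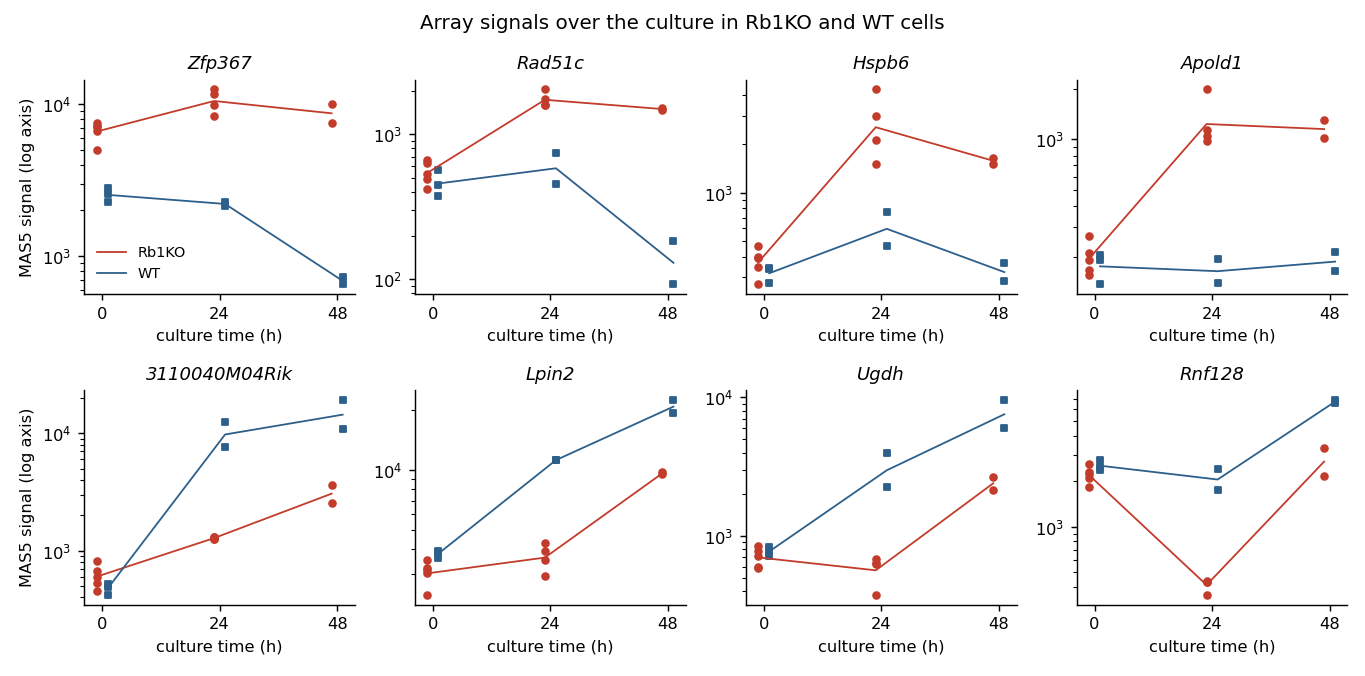
MAS5 signals (log axis) of 8 genes at 0, 24 and 48 h of culture, with Rb1KO as circles on the left and WT as squares on the right of each time, each point 1 array and the lines joining geometric means. Zfp367 is higher in Rb1KO at each time, Rad51c, Hspb6 and Apold1 separate at 24 h, and the 4 genes of the lower row are lower in Rb1KO at 24 h and 48 h.

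Between 24 h and 48 h the difference changed in 5 genes (0.0458%), 3 with a higher (0.0275%) and 2 with a lower (0.0183%) difference at 48 h. This count was the least stable: it was between 0 and 19 when single arrays were left out, and 0 in limma without Rb1KO replicate 2 of 48 h (653 at an unadjusted p under 0.05). Slbp widened by 1.07 ± 0.20 (adjusted p = 0.0444), with 23271 and 27422 on the arrays labelled Rb1KO and 5927 and 7179 in WT at 48 h. Lrr1, a substrate receptor of a cullin ubiquitin ligase, did not pass at 24 h (2010.2, 2276, 2739 and 2335 in Rb1KO and 2721 and 2489.5 in WT) and read 2477 and 2970.1 in Rb1KO and 929.8 and 1261 in WT at 48 h. At 24 h Lrr1 was on average lower in Rb1KO, and only 1 of its 3 probe sets went that way. Serpind1, which encodes the liver-secreted protease inhibitor heparin cofactor II, was bright at 0 h, between 3658 and 4867 in Rb1KO and 4656 and 6448 in WT, and dim at 24 h, with 185, 105, 126 and 115 in Rb1KO and 18.2 and 14.6 in WT. At 48 h it read 17.9 and 47.6 on the arrays labelled Rb1KO and 85.6 and 127 in WT. The WT signals at 24 h are below the value of 32 added before the log, so no size of its difference is read from them. The other 2 genes, 1110002L01Rik and Dennd6b, were dim and are named only to complete the 5, after their values were seen. Dennd6b, which encodes a guanine nucleotide exchange factor domain protein, read 329.8, 319.8, 234 and 284 in Rb1KO and 60.3 and 60.9 in WT at 24 h, but 312 in DKO and 284 and 246 in p107KO.

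Genes that flank Rb1 were described because they share its part of the chromosome. Rb1 spans 73192858 to 73325951 of chromosome 14 (GRCm38.p6). Of the 8 other genes tested within 2 Mb of it, 2 passed, both lower: Sucla2, a subunit of succinyl-CoA ligase, with a difference of -0.64 and Lcp1, the leukocyte actin-bundling protein L-plastin, with -0.60. The call of Sucla2 held in 1 and that of Lcp1 in 2 of the 6 fits without 1 array. Lpar6, a lysophosphatidic acid receptor gene that lies inside Rb1, read 601, 459.5, 453 and 461 in Rb1KO and 618 and 541 in WT, a difference of -0.23 ± 0.18 (adjusted p = 0.478). Med4, a Mediator subunit gene, and Itm2b did not pass either (adjusted p = 0.271 and 0.294). Within 15 Mb, 8 of 102 genes passed (7.84%), and over the whole chromosome 29 of 371 (7.82%), against 7.63% of all genes tested. Dleu2, the host gene of miR-15a and miR-16, Pbk, Dpysl2 and Spata13 rose, and these 4 lie on the side of lower coordinates. Kbtbd6 also rose and lies on the side of higher coordinates, as do the genes that fell, Sucla2, Lcp1 and Tsc22d1. The calls of Dpysl2 and Spata13 were lost without WT replicate 2. Pbk, a mitotic kinase gene, read 11579, 8980.4, 9092 and 10814 in Rb1KO and 5276 and 4478 in WT, a difference of 1.04 ± 0.13 (adjusted p = 3.27e-05).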

How the data were processed

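RNA of mouse fetal liver cells was measured on 27 Affymetrix Mouse Genome 430 2.0 arrays. The authors deposited MAS5 signals, an intensity on a linear scale for each of 45037 probe sets, and the submitters' processing notes name GCOS 1.4. The MAS5 algorithm scales each array to one mean, so a shift of total RNA is lost. The platform's annotation gave 34945 probe sets with 1 symbol, 932 with several and 9160 unnamed, and only the first were used, which left 18193 genes. Each gene was represented by its probe set with the highest mean log2(signal + 32), and the lowest 40% of genes were left out (10916 tested). One limma model (limma 3.58.1, R 4.3.3) with a mean per group over all 27 arrays and a mean-variance trend gave two-sided p-values, adjusted by Benjamini-Hochberg over all genes tested. The number of arrays limits the precision. The members and lists were chosen with earlier results of these data known. Named were Rb1, Rbl1 and Rbl2, the 20 largest rises and falls among bright genes that passed without overlap, every list member that passed (otherwise up to 4 members of smallest p), neighbours of Rb1, genes within 15 Mb that passed, and the largest interaction changes. E2f1, Cdkn1a, Gata1 and genes said to be so were named after their values were seen. Promoters are RefSeq's. Tables and figures were made with Python 3.11.15, pandas 2.3.3, numpy 2.4.6 and matplotlib 3.10.9. Alternatives changed the pseudocount, the filter, the normalization, the choice of probe set, array weights, the arrays in the fit and the replicate block.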

Additional observations from a re-analysis of the deposited data

Results flagged for a closer look

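Of 159 sets of 4 Rb1KO signals at 24 h, 11 had 1 array far from the other 3, and chance flags about 1 in 20 groups. Replicate 1 was the array apart in 3 of them: Gfra2 at 444.6 (192.2 to 209.2 on the others), Lpar6 at 600.5 (452.8 to 460.8) and Ugdh at 373.9 (623.6 to 678.5). Replicate 2 was apart in 4: Calcrl at 147 (221.6 to 240.4), Otud1 at 861.3 (981.6 to 1006.6), Pdgfrb at 40.3 (66.6 to 72.9) and the Y-linked Eif2s3y at 1404.7 (4.9 to 31.3). Replicate 3 was apart for Dusp1 at 9577.6 (8365.1 to 8514.3). Replicate 4 was apart in 3: Hnf4a at 261.5 (71.2 to 84.5), Rnf128 at 352.2 (429.6 to 434) and Xk at 472.9 (849.4 to 952). For Calcrl, Dusp1, Otud1, Rnf128, Ugdh and Xk the array apart is on the same side of both WT arrays as the others.

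The Rb1KO minus WT difference changed between 0 h and 24 h in a test of that change itself (limma, adjusted over all genes) for 31 named genes. It became lower by the following log2 amounts in genes that fell at 24 h. Fasl changed by -3.33, 3110040M04Rik by -3.22, Ackr3 by -3.16, Fabp4 by -2.75 and Crem by -2.55. Ugdh changed by -2.20, Cdkn2b by -2.14, Chaserr by -2.11, Rnf128 by -2.03, Ptpn14 by -1.85 and Csrnp2 by -1.83. Sertad3 changed by -1.67, Csf2rb2 by -1.52, Scamp1 by -1.47, Mir22hg by -1.32 and Lpin2 by -1.30. Smaller changes were those of Cish (-1.19), Fbxo30 (-1.13), Sqstm1 (-0.93), Xbp1 (-0.90) and Pim1 (-0.86). It became higher in Dleu2 by 2.99, in Apold1 by 2.56, in Serpind1 by 2.05, in Fgf13 by 1.84 and in Hspb6 by 1.83. Nrm changed by 1.66, Stat2 by 1.60, Cln6 by 1.51, Haus4 by 1.36 and Rad51c by 1.29. Between 24 h and 48 h the difference became higher in Lrr1 by 1.46 and in Slbp by 1.07, and lower in Serpind1 by -2.86. For Serpind1 both changes use signals of 18.2 and 14.6 in WT at 24 h, below the value of 32 added before the log.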

How the results depend on the processing

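With all 27 arrays, 833 genes passed in Rb1KO against WT at 24 h, and 297 to 891 did when single arrays of the 2 groups were left out. This count was 273 with only the arrays of the groups compared and 538 when arrays that show Y-linked signal were left out. It was 1335 without the first Rb1KO, p107KO and DKO array of 24 h and the fifth Rb1KO array of 0 h. In that order, 267, 490 and 796 of these genes were shared with the 833. Those last 4 arrays correlated least with their time among the arrays of 0 h and 24 h. They are called the 4 least correlated here, although some arrays of 48 h correlated less with their time. In DKO against p107KO, 293 genes passed, 204 without p107KO replicate 1, 211 without p107KO replicate 2, and 167 with only the arrays compared. Leaving out the DKO array, which is among the Y-positive arrays and among those 4, gave no value there. For the change between 0 h and 24 h, 90 genes passed, 44 to 110 with single arrays left out, 196 with array weights, 55 with only the groups compared, 28 without the Y-positive arrays and 168 without the 4 least correlated. For the change between 24 h and 48 h, 5 genes passed, 0 to 19 with single arrays left out, 20 with a pseudocount of 1, 2 with a pseudocount of 100, 3 with no filter, 11 with the lowest 60% left out, 25 with quantile normalization (84% with a higher difference, against 60%), 9 with the mean over probe sets, 14 with array weights and 43 without the 4 least correlated arrays. It was 0 in limma with only the groups compared (530 at an unadjusted p under 0.05) and without the Y-positive arrays (560 at an unadjusted p under 0.05). Deviations of same-numbered WT and Rb1KO arrays from their group means correlated at 0.0929 and 0.0564 at 24 h and at 0.0709, -0.0874 and 0.147 at 0 h. At 48 h the value was 0.217, which groups of 2 arrays give for both pairs by construction. Those of p107KO and Rb1KO correlated at 0.317 and 0.268 at 24 h and at 0.421 and 0.131 at 0 h. These values do not settle whether arrays were paired. The labels do not say so, and their numbers were not taken as pairs. With the replicate block the 4 counts were 782, 384, 82 and 5, each within 1.5 times its count without the block. Of the 119 named genes that passed, 48 passed under every alternative, 70 lost the call under at least 1 with the same direction, and Rb1 was reversed under 1, the mean over its probe sets (0.048, adjusted p = 0.934), where its dim second probe set went the other way. Genes in the dimmest 40% were not tested. Other causes were not tested.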

Other observations

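Cln6, which encodes a membrane protein of the endoplasmic reticulum, rose at 24 h and belongs to none of the lists. It read 848, 1158, 1179 and 876 in Rb1KO and 382 and 402 in WT, a difference of 1.29 ± 0.21 (adjusted p = 0.000488), and its call held in all 6 fits without 1 array. At 0 h it lay between 673 and 1130.3 in Rb1KO and 819.5 and 1153 in WT, so the groups overlapped there. Fgf13, an intracellular relative of the fibroblast growth factors, read 942, 692, 605 and 838 in Rb1KO and 90.5 and 109.6 in WT. Kbtbd6, a subunit of a cullin ubiquitin ligase, read 433, 329, 377 and 357 in Rb1KO and 215 and 109.5 in WT, a difference of 1.11 ± 0.32 (adjusted p = 0.0353), and its call held in 2 of the 6 fits. Tsc22d1, a leucine zipper gene, read 7904, 6391, 6485 and 7296 in Rb1KO and 11239 and 10836 in WT, a difference of -0.66 ± 0.15 (adjusted p = 0.00627), with 1 of its 7 probe sets going the other way, and its call was lost when either WT array was left out.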
